A study of Mus musculus with 6 samples.

Results

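Brown adipose tissue (BAT) was set against both white depots of the same series, epididymal fat (Epi) and subcutaneous fat (SubQ), to describe which transcripts tell brown from white fat. Arrays were assigned by their titled depot, which gave 2 BAT arrays and 4 white arrays of 6 arrays in all. The groups were BAT KO, BAT WT, Epi KO, Epi WT, SubQ KO and SubQ WT, with 1 array each. KO mice lacked Kdm4b, a histone H3 lysine demethylase gene, in the whole body, and WT mice were wild type. All mice were males of 2 months that ate chow at room temperature and went without food for 6 hours before sampling. The labels name neither the deleted exons nor how many mice gave an array, nor is it stated whether 1 mouse gave all depots. Kdm4b itself had a signal of 95.2 in BAT KO and 135 in BAT WT, 188 in Epi KO and 227 in Epi WT, and 157 in SubQ KO and 272 in SubQ WT, so it was lower on the KO array of each depot, and a probe set outside the deleted part would check nothing.

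Brown adipocytes burn fatty acids and glucose in densely packed mitochondria, and the uncoupling protein UCP1 lets protons back across the inner membrane so that respiration releases heat. Noradrenaline from sympathetic nerves drives this through cyclic AMP, which starts lipolysis and raises transcription of thermogenic genes. White adipocytes store triglyceride in a single large droplet and secrete hormones such as leptin.

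Of 18193 genes with a symbol on the array, 13239 had a signal above a floor of 63 on at least 3 arrays and were tested. The floor lies near the 40th percentile of the probe sets and was set under every signal before the log2 step. For each gene the mean of the BAT arrays minus the mean of the white depots was tested with limma, with genotype as a block, and a gene is said to be called where the Benjamini-Hochberg adjusted p was under 0.05. In BAT 2850 genes (21.5%) were called higher and 4120 (31.1%) lower, and without the BAT WT array 1812 were called higher. A stricter rule of size, with no test, counts genes whose lower BAT signal was at least 2-fold above the highest white signal, or the reverse. By this rule 679 genes (5.13%) stood apart on the higher side and 1112 (8.4%) on the lower side, and all 1791 were also called. Called differences of at least 8-fold were found for 59 genes higher and 148 lower in BAT. A gene seen in BAT alone cannot pass the filter of 3 arrays, while a gene seen on the white arrays alone can. None of the 228 genes above the floor on both BAT arrays only was tested, so the 2 directions were not counted alike. With a filter of 2 arrays, added after the values were seen, 2939 genes were called higher and 4170 lower. By the rule of size 703 and 1112 then stood apart. With 1 array per depot and genotype, the spread behind the p-values is how much the KO to WT difference varies between depots. It is not the spread between mice. Over all probe sets the log2 signals of BAT KO and BAT WT correlated at r = 0.984, the white arrays among themselves at 0.960 to 0.987, and BAT with white arrays at 0.901 to 0.924. In bulk tissue, fewer cells of a type and less RNA per cell cannot be told apart.

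The genes that mark brown and white adipocytes separated the arrays as their labels say. Ucp1 had signals of 40619 in BAT KO and 44367 in BAT WT, against 4783 in Epi KO, 6649 in Epi WT, 1428 in SubQ KO and 2934 in SubQ WT. Every BAT signal lay above every white signal, the white arrays were all well over the floor, and Epi was brighter than SubQ. The log2 difference of Ucp1 was 3.64 ± 0.21 (limma SE, 2 BAT against 4 white arrays, adjusted p = 0.000458). Slc27a2, which encodes an enzyme that imports very long-chain fatty acids and joins them to coenzyme A, had 9866 in BAT KO and 19623 in BAT WT, against 531 and 734 in Epi KO and WT and 85.3 and 269 in SubQ KO and WT. Its signal was 45.2-fold higher in BAT, and the widest gap was to SubQ (log2 difference 6.52, against 4.48 to Epi). Elovl3, an elongase of very long-chain fatty acids, was 31.0-fold higher, and Fabp3, a cytosolic fatty acid binding protein first known from heart, 29.1-fold higher. Lep, which encodes leptin, ran the other way, with 404 in BAT KO and 211 in BAT WT, against 14421 in Epi KO, 6063 in Epi WT, 9178 in SubQ KO and 3858 in SubQ WT. Its BAT signals were thus above the floor and 25.6-fold below white (log2 difference -4.68 ± 0.14). These 5 genes were chosen as markers with results of these arrays known, so their counts are a description.

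**Figure D1:**
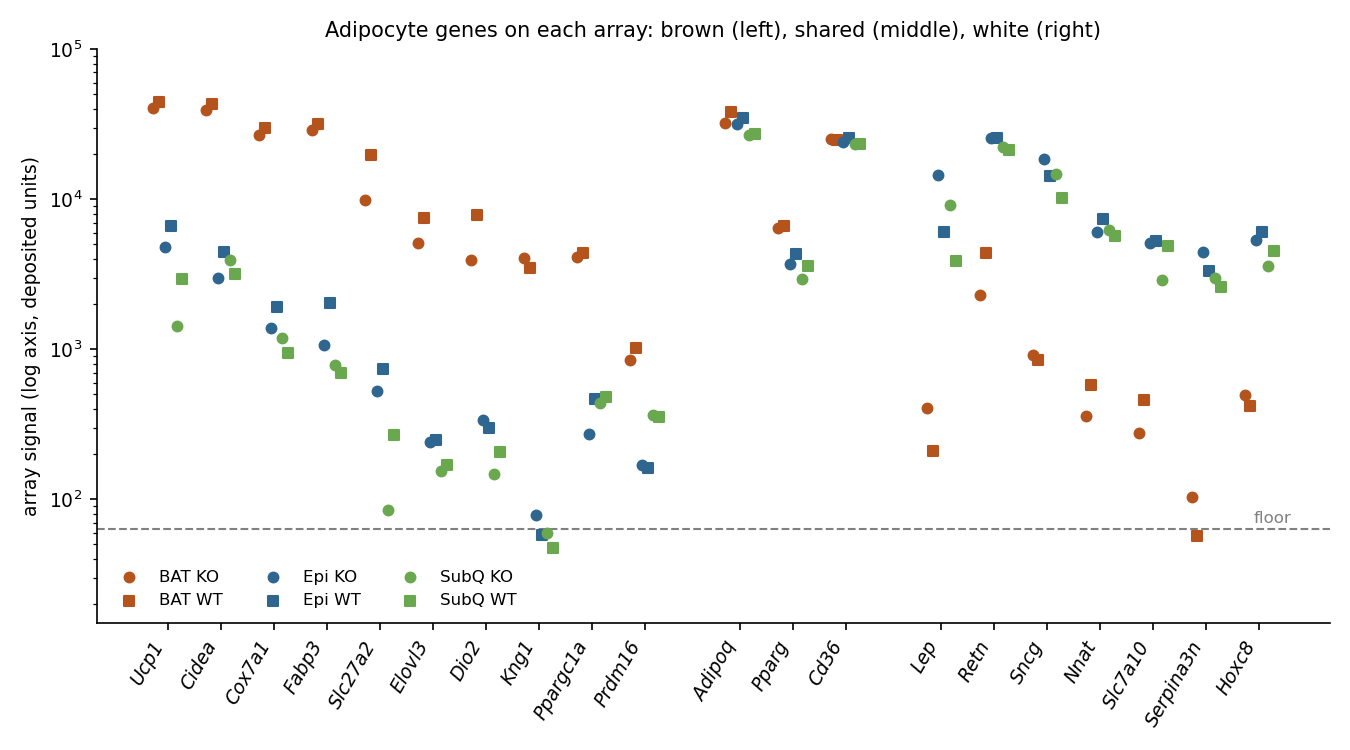
Array signal on a log axis for genes of brown adipocytes (left), genes of all adipocytes (middle) and genes of white adipocytes (right), 1 point per array, with BAT in orange, Epi in blue and SubQ in green, circles for KO and squares for WT, and the floor of 63 dashed. The 2 BAT points lie above all 4 white points for each gene on the left and below them for each gene on the right, while Cd36 has BAT signals of 25201 and 24723 within the range of the white arrays.

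Of 30 tested genes of brown adipocytes, 29 were called higher in BAT and none lower, and 23 stood apart by the rule of size. Among all genes tested 21.5% were called higher, and 5.13% stood apart on that side. The median log2 difference of the list was 3.46, against -0.11 over all genes tested. The list holds the markers Ucp1, Slc27a2, Elovl3 and Fabp3, so its counts are not separate from theirs. Kng1, which encodes kininogen, the precursor of bradykinin, had the largest difference, with 4068 and 3464 in BAT KO and WT against 78.4 in Epi KO and values under the floor on the other white arrays, so it was at least 56.4-fold higher. Dio2, the deiodinase that turns thyroxine into active T3 inside the cell, had 3913 in BAT KO and 7811 in BAT WT, against 340.1 and 299.9 in Epi KO and WT and 148 and 208 in SubQ KO and WT. Both Kng1 and Dio2 thus had low white signals, while those of Cidea, a lipid droplet protein, were high on every array at 39295 and 43033 in BAT KO and WT and 2983, 4444, 3949.5 and 3153 in Epi KO, Epi WT, SubQ KO and SubQ WT. Acot11, an acyl-CoA thioesterase, was 27.2-fold higher in BAT, Pank1, the kinase that starts coenzyme A synthesis, 27.2-fold, and Plin5, the perilipin that ties droplets to mitochondria, 17.9-fold. Kcnk3, a potassium channel gene, was 18.7-fold higher and the proton channel gene Otop1 15.7-fold. The member that was not called was Eva1a, with 164 and 87.5 in BAT KO and WT and 103, 145, 97.2 and 144 in the white arrays in the same order, where the groups overlapped.

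Zic1, a zinc finger gene of the early body axis and a standard brown fat marker, did not enter the test because the filter asks for 3 arrays above the floor. Its signals were 960.1 in BAT KO and 876 in BAT WT, against 26.3 to 31.2 on the 4 white arrays, all under the floor, so it was at least 14.6-fold higher in BAT. With the filter lowered to 2 arrays, an alternative added after the values were seen, 14103 genes were tested and Zic1 had an adjusted p of 0.00064. In all, 228 genes were above the floor on both BAT arrays and on no white array, and 371 were above it on all white arrays and on no BAT array. At 4 times the floor or more on the bright side these shrank to 5 genes for BAT, which besides Zic1 held Plet1os, Fer1l6, Aars2 (the mitochondrial alanyl-tRNA synthetase) and 2810030D12Rik, and to 26 for white fat, among them the axon guidance gene Slit3 and the kinase gene Stk26. The genes of these 2 sets were picked for their values after these had been seen.

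Among the transcriptional regulators of brown fat, 14 of 23 tested genes were called higher in BAT and 3 lower, 9 stood apart on the higher side, and the median log2 difference was 0.75. The nuclear receptor gene Ppara had 4241 and 4346 in BAT KO and WT against 241, 349, 314 and 348 in Epi KO, Epi WT, SubQ KO and SubQ WT, a 13.9-fold difference. Ppargc1a and Ppargc1b, coactivators of mitochondrial genes, were 10.5-fold and 9.65-fold higher. Their partner receptors Esrra and Esrrg were 5.40-fold and at least 9.62-fold higher, and Perm1, a further regulator in the same pathway that is known from muscle, at least 9.88-fold. Prdm16, which directs precursors toward the brown fate, had 846 and 1020.1 in BAT KO and WT, against 168 and 161 in Epi KO and WT and 362 and 352 in SubQ KO and WT, so that its white signal was higher in SubQ than in Epi. Of this list, Tfam, Nrf1 and Gabpa, which act on the mitochondrial genome or on nuclear mitochondrial genes, differed less. Other genes that act on the mitochondrial genome were listed under mitochondrial import and biogenesis, where 36 of 39 were called higher and 1 lower. Among them Tfb2m and Polrmt stood apart on the higher side. Tfam, which packages mitochondrial DNA, was 1.68-fold higher (adjusted p = 0.00534), while Nrf1 and Gabpa had log2 differences of 0.19 and 0.04 and were not called (adjusted p = 0.232 and 0.846). With quantile normalization Nrf1 was called (log2 difference 0.46), and with the mean of all probe sets Gabpa was (0.77). Ebf2, an early brown lineage factor, was 1.61-fold higher (adjusted p = 0.014), a call lost without BAT KO (adjusted p = 0.0875) or without Epi KO (adjusted p = 0.0524). The lower genes included Zbtb16, at 512 and 780.0 in BAT KO and WT against 1332 to 1850.3 in white, a call lost without BAT KO (adjusted p = 0.0697), and Tbx15, whose BAT signals of 85.9 and 69.6 lay below SubQ at 387 and 496 and above Epi at 53.8 and 31.9.

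Promoter letters were looked up for motifs of factors that the cyclic AMP pathway and these receptors use, in RefSeq windows from 250 bases before to 50 bases after each start site (GRCm38.p6, both strands). The cyclic AMP response element (CRE, TGACGTCA) lay in 3.21% of the windows of genes called higher in BAT, in 1.65% of those of genes called lower and in 2.79% of those of all genes tested. The estrogen-related receptor element (ERRE, TCAAGGTCA), which contains the core AGGTCA, lay in 0.364% (11 of 3021), 0.283% (12 of 4233) and 0.3% (41 of 13646) in the same order, and in 2 of the 70 windows of the respiratory chain and ATP synthase genes, too few to set beside these shares. The ETS site CCGGAAGT, the kind of site that GABPA binds, lay in 8.87% of the windows of genes called higher, 4.35% of those called lower and 7.13% of all tested, and in 6.68% of the windows of the genes that stood apart on the higher side. By list it lay in 16.4% of the windows of mitochondrial ribosomal protein genes (12 of 73), in 23.3% of those of mitochondrial import and biogenesis genes (10 of 43) and in 7.14% of those of the respiratory chain and ATP synthase (5 of 70). Cytosolic ribosomal protein genes, whose median log2 difference was -0.01, held it in 18.6% (8 of 43). A match is a description of the letters and not a bound site. The 250 bases before the start site are shown for 3 genes that were higher in BAT and hold such a match, with the match in capitals: Dio2 on the minus strand at chr12:90739039-90739288, Cycs, which encodes cytochrome c, on the minus strand at chr6:50566570-50566819, and Timm8b, a chaperone gene of mitochondrial import, on the plus strand at chr9:50603651-50603900.
Dio2 (CRE): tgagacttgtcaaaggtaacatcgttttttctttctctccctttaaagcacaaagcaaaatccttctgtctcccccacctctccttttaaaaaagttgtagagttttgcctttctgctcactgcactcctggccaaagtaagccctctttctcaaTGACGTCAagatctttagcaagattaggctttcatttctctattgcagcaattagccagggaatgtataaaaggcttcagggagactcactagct
Cycs (CRE): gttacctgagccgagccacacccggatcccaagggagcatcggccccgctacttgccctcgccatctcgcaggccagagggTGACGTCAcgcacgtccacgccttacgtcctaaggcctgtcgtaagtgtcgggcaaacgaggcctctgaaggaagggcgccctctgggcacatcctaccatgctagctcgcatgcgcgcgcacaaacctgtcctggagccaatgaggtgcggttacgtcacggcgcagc
Timm8b (ERRE): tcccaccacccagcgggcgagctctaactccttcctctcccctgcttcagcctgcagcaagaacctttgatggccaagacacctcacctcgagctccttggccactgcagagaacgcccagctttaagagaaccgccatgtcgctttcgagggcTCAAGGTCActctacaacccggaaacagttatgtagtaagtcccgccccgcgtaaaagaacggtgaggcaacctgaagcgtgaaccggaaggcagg
The match begins 95 bases before the start site in Dio2, 169 in Cycs and 96 in Timm8b. Sdhd, which encodes a membrane subunit of respiratory complex II, starts on the opposite strand next to Timm8b, and the same 9 bases, at 50603805 to 50603813, lie after its start site. In BAT Dio2 was 23.4-fold, Cycs 2.89-fold, Timm8b 2.51-fold and Sdhd 4.40-fold higher.

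Genes that receive the lipolytic signal moved in both directions, with 4 of 15 tested genes called higher in BAT and 8 lower. Their shares were 26.7% and 53.3%, against 21.5% and 31.1% of all genes tested. Adcy3, an adenylyl cyclase that makes cyclic AMP, had 4839 and 8564 in BAT KO and WT against 506, 937, 776 and 923 in Epi KO, Epi WT, SubQ KO and SubQ WT, and Gnas, which encodes the stimulatory G protein subunit upstream of it, was 2.43-fold higher. The inhibitory subunit gene Gnai1 was 3.40-fold lower in BAT. So were the genes of the metabolite receptors Ffar2 (6.81-fold) and Hcar2 (5.0-fold), which couple to inhibitory G proteins and restrain lipolysis. Tshr, the thyrotropin receptor, had 152 and 76.2 in BAT KO and WT against 807 to 1514 in white, and Npr3, which clears natriuretic peptides, was 5.71-fold lower. Ptger3, a prostaglandin receptor that also couples to inhibitory G proteins, was 1.5-fold higher (adjusted p = 0.0149). That call was lost without BAT KO (adjusted p = 0.0618), BAT WT (0.085) or Epi KO (0.0589), against Epi only (0.0941), with the mean of all probe sets (0.062), with brown against white as 1 term (0.0727) and without the genotype term (0.267).

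Genes of fatty acid uptake and acyl-CoA handling were mostly higher, 14 of 22 (63.6%) against 1 lower (4.55%), with 9 apart and a median log2 difference of 0.64. The shares over all genes tested were 21.5% higher and 31.1% lower, with 5.13% apart on the higher side. Acot2, a mitochondrial acyl-CoA thioesterase gene, was 4.86-fold higher and the acyl-CoA synthetase gene Acsl5 4.69-fold, while Slc27a1, a fatty acid transport protein gene related to Slc27a2, was 2.25-fold lower. Fabp4, the main fatty acid binding protein of adipocytes, had 58778 and 62775 in BAT KO and WT against 37638 to 40913 in white, a difference of 1.57-fold that was not called under quantile normalization (log2 difference 0.11) or without BAT WT (adjusted p = 0.0521), and Fabp5 was not called (log2 difference 0.07, adjusted p = 0.732) and was lower under quantile normalization (-0.51, adjusted p = 0.037). Mitochondrial fatty acid oxidation went further, with 21 of 22 called higher, 19 of them apart, and a median of 1.77. The trifunctional protein subunit gene Hadha had 14029 and 14093 in BAT KO and WT against 1870.2, 2161, 1893 and 1929 in Epi KO, Epi WT, SubQ KO and SubQ WT. Acaa2, the last thiolase of the cycle, was 7.95-fold higher, the carnitine carrier gene Slc25a20 4.42-fold, and the inner-membrane carnitine transferase gene Cpt2 4.19-fold. The single lower member was Cpt1a, an outer-membrane carnitine transferase that is the liver form, with 519.8 and 537 in BAT KO and WT against 1909, 1593, 1357 and 1565 in the white arrays in the same order, and it also stood apart (3.02-fold lower). In peroxisomal lipid oxidation 14 of 23 were called higher (60.9%) and 2 lower (8.7%), with a median of 0.93. Ehhadh, a peroxisomal bifunctional enzyme, was 7.37-fold higher, and the peroxisomal transporter genes Abcd3 and Abcd2 moved apart, at log2 differences of 2.07 and -2.58.

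Nearly every gene of the citrate cycle and the respiratory chain was higher in BAT. Of 28 tested genes of the citrate cycle and pyruvate dehydrogenase, 26 were called higher, none lower, and 25 stood apart, with a median log2 difference of 1.95. Suclg1, a subunit of succinyl-CoA ligase, had 32113 and 33555 in BAT KO and WT against 6117, 6151, 5768 and 5115 in Epi KO, Epi WT, SubQ KO and SubQ WT. Pdk4, a kinase that shuts pyruvate dehydrogenase off, was higher still at 10.2-fold, while Pcx, which makes oxaloacetate from pyruvate, had a log2 difference of 0.09 and was not called (adjusted p = 0.64). Over the respiratory complexes and ATP synthase together, 75 of 79 tested genes were called higher and 1 lower, 65 stood apart on the higher side, and the median log2 difference was 1.58. By complex the medians were 1.70 in complex I (33 of 34 called higher), 1.84 in complex II (4 of 4), 1.87 in complex III (10 of 10), 1.25 in complex IV (12 of 14) and 1.28 in ATP synthase (16 of 17). In complex I the log2 differences ran from 0.04 for Ndufb1 to 2.28 for Ndufs1, while they ran from -0.47 to 4.43 in complex IV and from -2.16 to 1.68 in ATP synthase. Ndufb1, the member of complex I that was not called, had a low signal of 268 and 279 in BAT KO and WT and 166 to 343 in white. The size of these medians depended on the scaling, as quantile normalization gave 1.14, 1.44, 1.34, 0.67 and 0.66 for the 5 complexes in the same order. On the deposited scale the 99th percentile of the signal was 16021 and 16725 in BAT KO and BAT WT and 10840 to 11473 on the white arrays.

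**Figure D2:**
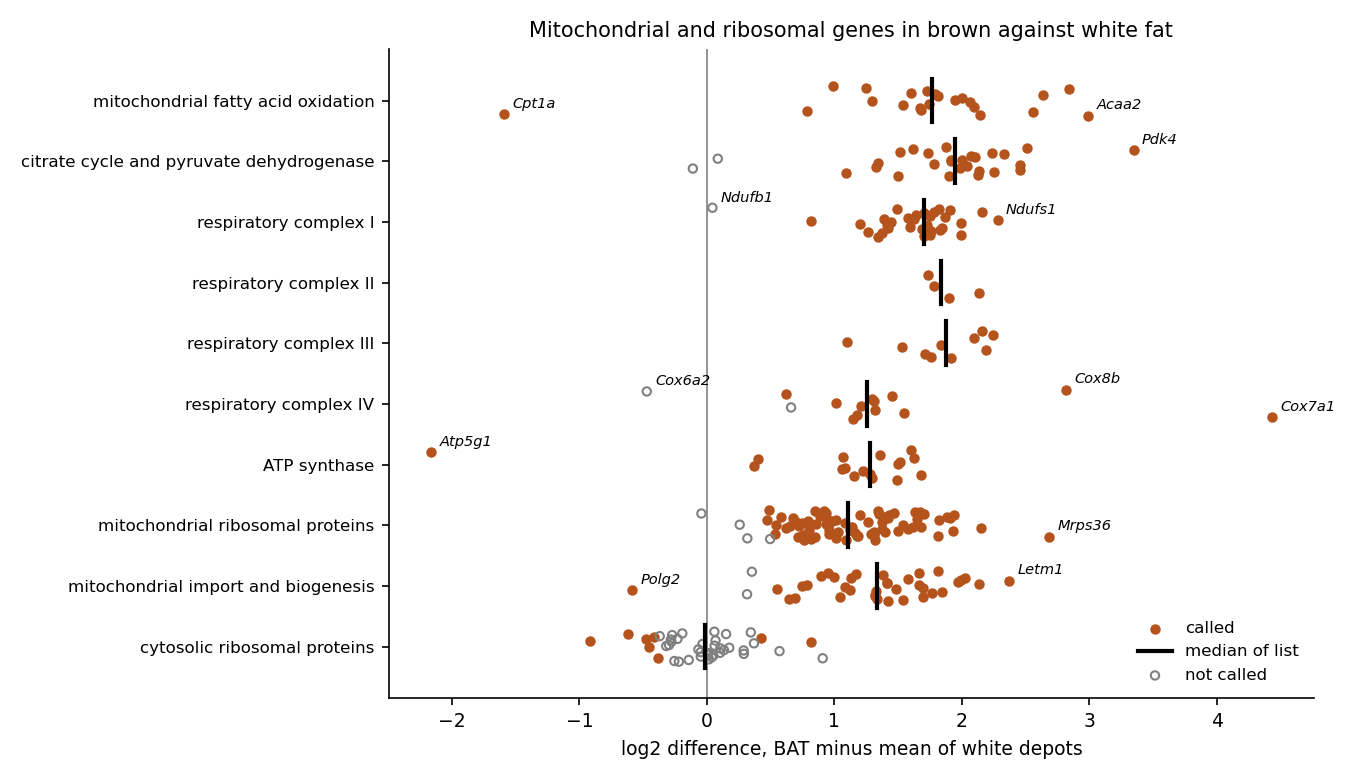
Log2 difference, BAT minus the mean of the white depots, for each tested member of 10 lists, with filled points for called genes, open points for genes not called and a black bar at the median of each list. The mitochondrial lists have medians of 1.11 to 1.95, with Cpt1a, Atp5g1 and Polg2 called lower, while the cytosolic ribosomal proteins have a median of -0.01.

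Subunits that come in more than 1 form differed by form. Cox7a1, the form of cytochrome c oxidase subunit 7a found in muscle, heart and brown fat, had 26808 and 29970.0 in BAT KO and WT against 1392, 1928, 1182 and 940.1 in Epi KO, Epi WT, SubQ KO and SubQ WT, a log2 difference of 4.43 ± 0.19. Its widely expressed counterpart Cox7a2 had a log2 difference of 1.21 ± 0.12. Cox8b and Cox8a showed the same order, at 2.82 and 1.31. The muscle form Cox6a2 was not called and overlapped between groups, with 133 and 596 in BAT KO and WT and 86.1 to 1909 in white, though without SubQ WT it was called lower (adjusted p = 0.0069). In ATP synthase the c subunit, the ring that turns with the proton flow, is made from 3 genes that encode the same mature protein. Atp5g1 had 435 and 455 in BAT KO and WT against 2080.5, 2249, 1889.6 and 1789.5 in the white arrays in the same order, so it was 4.48-fold lower in BAT while the other 16 tested ATP synthase genes were higher. Atp5g2 was 2.33-fold higher, and Atp5g3 had a log2 difference of 0.40 (adjusted p = 0.0413) that turned to -0.22 under quantile normalization and lost its call when any 1 array was left out. Of the 2 probe sets of Atp5g1, 1 was above the floor on at least 3 arrays, and it gave these values.

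**Figure D3:**
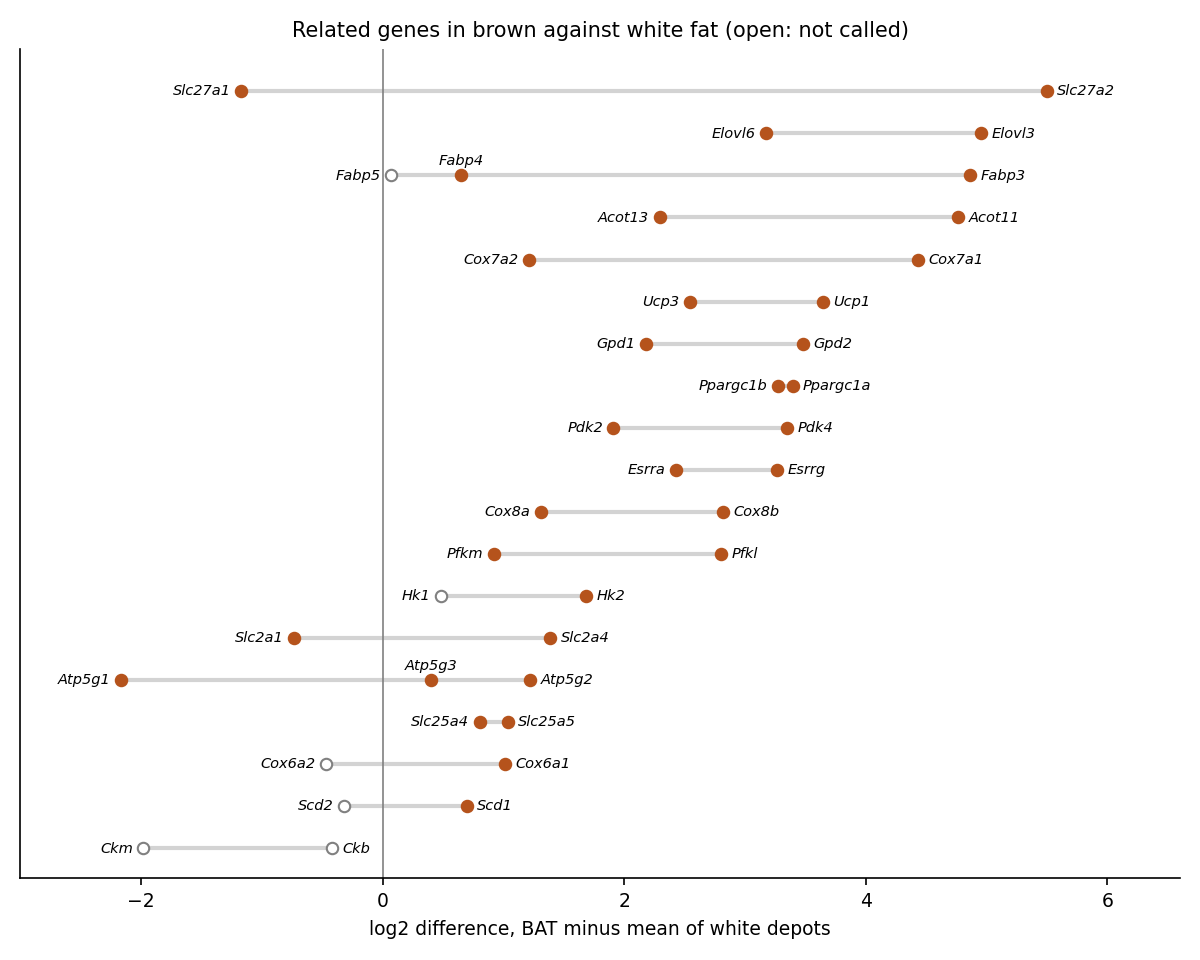
Log2 difference, BAT minus the mean of the white depots, for pairs and trios of related genes, 1 line per family, with filled points for called genes and open points for genes not called. Slc27a2 and Slc27a1, Slc2a4 and Slc2a1, and Atp5g2 and Atp5g1 lie on opposite sides of 0, and Cox7a1 lies far to the right of Cox7a2.

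Genes that build mitochondria were higher along with those that work in them. Of 76 tested mitochondrial ribosomal protein genes, 72 were called higher in BAT and none lower, 31 stood apart, and the median log2 difference was 1.11. This list took every Mrpl or Mrps symbol, so a member need not be part of that ribosome. By these symbols Mrps36 had the largest difference (6.44-fold) and Mrps6 did not differ by the test (log2 difference -0.04, adjusted p = 0.837). In mitochondrial import and biogenesis 36 of 39 were called higher and 1 lower, with a median of 1.34. Timm44, which tethers the import motor, was 4.39-fold higher and the inner-membrane protein gene Letm1 5.17-fold, while Polg2, the accessory subunit of the mitochondrial DNA polymerase, was 1.5-fold lower (adjusted p = 0.0166), a call lost without BAT KO, Epi KO, Epi WT or SubQ KO and under quantile normalization (adjusted p of 0.0505 to 0.101). Of the cytosolic ribosomal genes, a list that also took in Rpl7l1, Rpl22l1 and Rps19bp1 by name, 2 of 42 were called higher and 6 lower, with a median of -0.01. Under quantile normalization that median was -0.54.

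Genes of glucose and amino acid use were mostly higher as well. In glucose uptake and glycolysis 17 of 23 tested genes were called higher in BAT, 2 lower and 14 apart, with a median log2 difference of 1.68. The shares over all genes tested were 21.5% higher and 31.1% lower, with 5.13% apart on the higher side. Gpd2, the mitochondrial glycerol phosphate dehydrogenase that passes electrons from the cytosol to the chain, had 27138 and 22716 in BAT KO and WT against 1896, 2644, 2470.3 and 1997 in Epi KO, Epi WT, SubQ KO and SubQ WT. Ppp1r3b, which brings a phosphatase to glycogen, was 24.6-fold higher, the phosphofructokinase gene Pfkl 6.97-fold and the monocarboxylate carrier gene Slc16a1 5.91-fold. The insulin-regulated glucose transporter gene Slc2a4 was 2.62-fold higher, and Slc2a1, the basal transporter, was 1.66-fold lower (adjusted p = 0.0216), a call lost without BAT KO, Epi KO or Epi WT, under quantile normalization, with the floor at the 20th percentile, with no filter and against Epi only (adjusted p of 0.0536 to 0.125). Hk2 was 3.21-fold higher, while Hk1 had a log2 difference of 0.49 and missed the threshold (adjusted p = 0.0609). Hk1 was called higher under quantile normalization (adjusted p = 0.0405), median centring (0.0334), a floor at the 60th percentile (0.0277), an intensity trend (0.0186) and without BAT KO (0.0337). In the breakdown of branched-chain amino acids 20 of 22 were called higher and none lower, with a median of 1.07, led by Bckdha, a subunit of the committing dehydrogenase, at 4.22-fold. The first step, Bcat2, had a log2 difference of -0.24 and was not called (adjusted p = 0.187).

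Genes of fatty acid and triglyceride synthesis were mostly higher in BAT, with a few lower. Of 28 tested genes 20 were called higher (71.4%) and 4 lower (14.3%), against 21.5% and 31.1% of all genes tested. The median log2 difference was 0.80. Acacb, the acetyl-CoA carboxylase whose malonyl-CoA restrains carnitine transfer, had 11897 and 10240.0 in BAT KO and WT against 737, 1529.7, 1011 and 1434 in Epi KO, Epi WT, SubQ KO and SubQ WT. Elovl6, which lengthens palmitate, was 9.05-fold higher, the glucose-sensing factor gene Mlxipl 4.76-fold and Fasn, fatty acid synthase, 2.28-fold. The lower members were Elovl1 (3.86-fold), the desaturase gene Fads1 (3.77-fold), Mogat2 (4.36-fold) and Mogat1 (2.44-fold), the MOGAT enzymes joining a fatty acid to monoacylglycerol. Of 14 tested genes of the creatine and calcium cycles 3 were called higher (21.4%) and 5 lower (35.7%), shares near the 21.5% and 31.1% of all genes tested. The list shares Ckm, Atp2a1, Casq1 and Ryr1 with the skeletal muscle markers, and its median was 0.27 to Epi and -1.66 to SubQ, the depot where muscle markers were highest. The part of muscle in these values was not tested. Alpl, a phosphatase of the creatine cycle in brown fat mitochondria, was 3.08-fold higher, while Gatm, which starts creatine synthesis, was 4.01-fold lower and Ckb, the cytosolic creatine kinase, had a log2 difference of -0.42 and was not called (adjusted p = 0.118). Ckb was called lower against Epi only (log2 difference -0.87, adjusted p = 0.0281), without BAT WT (-0.75, adjusted p = 0.0399) and with an intensity trend in limma (adjusted p = 0.0465), and its difference to SubQ was 0.02.

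**Figure D4:**
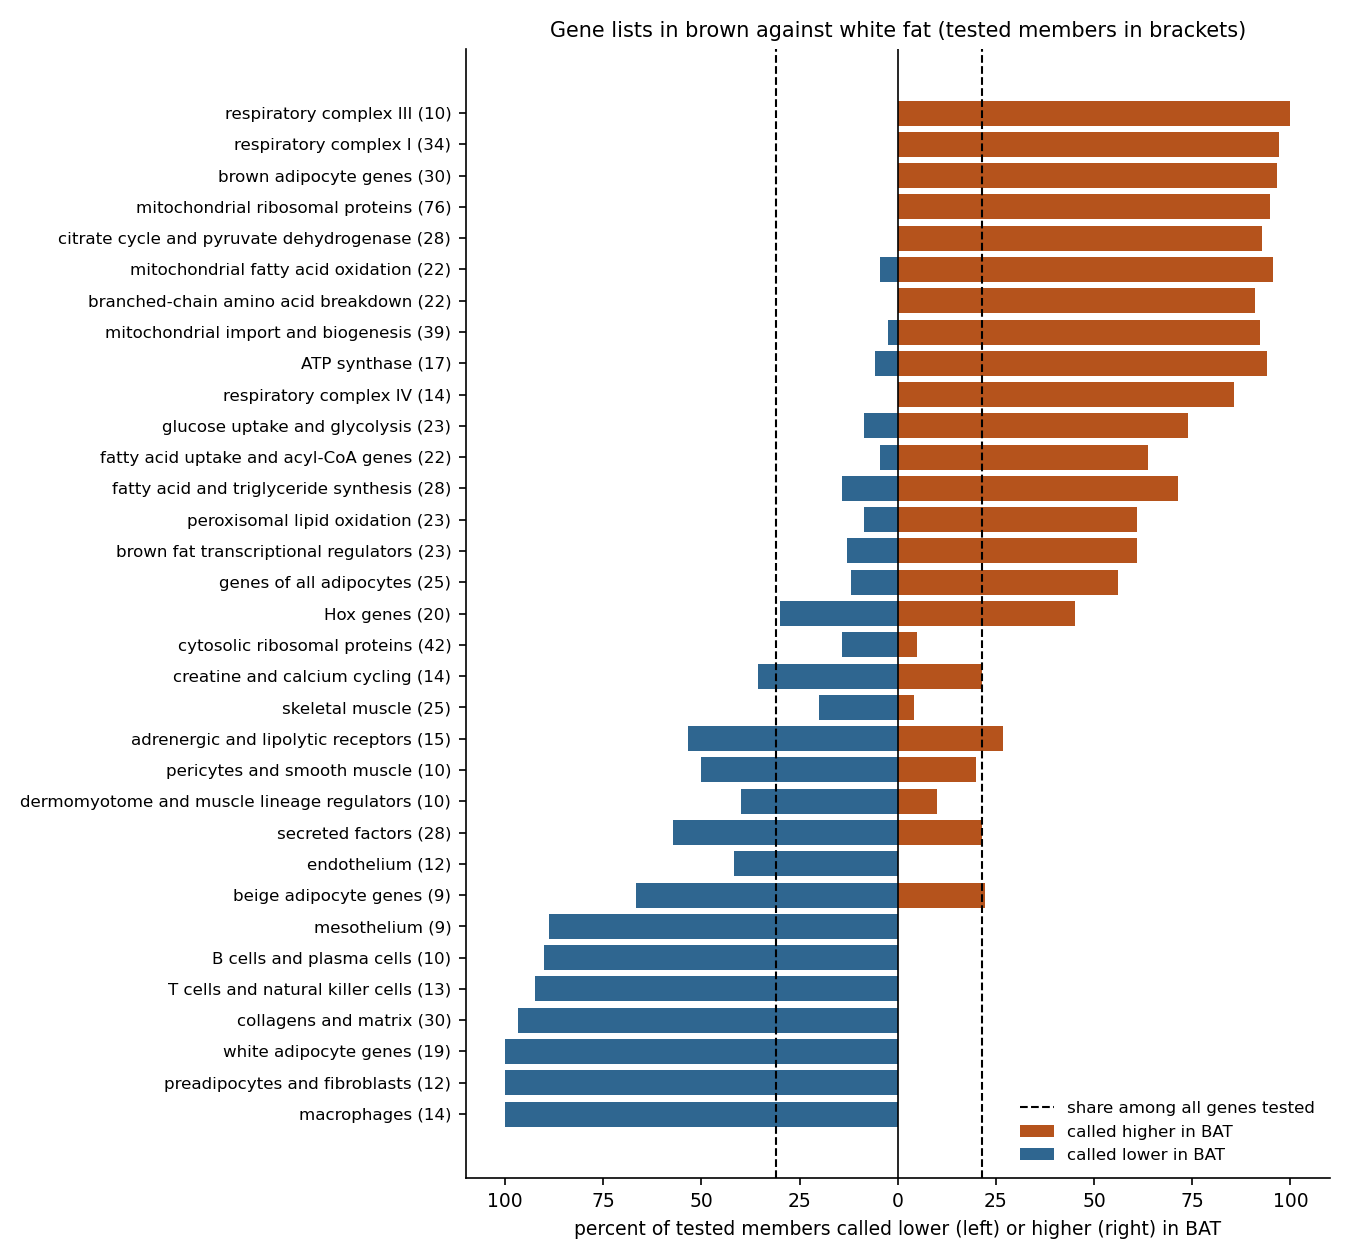
Percent of the tested members of each gene list that were called higher (orange, right) or lower (blue, left) in BAT, ordered by the difference of the 2 shares, for lists with at least 9 tested members, with dashed lines at the shares among all genes tested, 21.5% higher and 31.1% lower. Mitochondrial lists and the brown adipocyte genes fill the top of the plot, and macrophage, fibroblast, white adipocyte and matrix lists the bottom.

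White adipocyte genes were lower throughout. All 19 tested members were called lower in BAT, 16 stood apart and the median log2 difference was -3.40. Among all genes tested 31.1% were called lower, and 8.4% stood apart on that side. The list holds the marker Lep. Sncg, gamma-synuclein, had 914 and 848 in BAT KO and WT against 18577, 14382, 14732 and 10208 in Epi KO, Epi WT, SubQ KO and SubQ WT. Nnat was 13.9-fold lower, the amino acid transporter gene Slc7a10 12.4-fold, and Retn, the hormone gene resistin, 7.42-fold. Fgf1 was lower than Epi (log2 difference -2.08) and close to SubQ (-0.01), and its call was lost without BAT KO (adjusted p = 0.0557). Genes that all adipocytes express differed less in size, with a median of 0.51 that turned to -0.09 under quantile normalization. Of 25 tested, 14 were called higher (56%) and 3 lower (12%), against 21.5% and 31.1% of all genes tested. On the higher side 4 stood apart, as did 5.13% of all genes tested. Adiponectin, Adipoq, had 32349 and 38402 in BAT KO and WT, against 31813, 34805, 26704 and 27392 in the white arrays in the same order, where the groups overlapped. The master regulator Pparg was 1.82-fold higher (adjusted p = 0.00412) and Cebpb 4.69-fold, while Cebpa and the fatty acid translocase gene Cd36 had log2 differences of 0.09 and 0.05 and were not called (adjusted p = 0.546 and 0.758). Under quantile normalization Adipoq and Cd36 were called lower in BAT, at log2 differences of -0.39 (adjusted p = 0.0476) and -0.58 (adjusted p = 0.0124).

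Secreted factors were lower in BAT more often than higher, with 16 of 28 tested called lower and 6 higher. These shares, 57.1% and 21.4%, compare with 31.1% and 21.5% of all genes tested. Serpina3n, a secreted protease inhibitor, had 103 in BAT KO and a value under the floor in BAT WT, against 4467, 3335, 2987 and 2619 in Epi KO, Epi WT, SubQ KO and SubQ WT, so it was at least 40.8-fold lower. Agt, angiotensinogen, was at least 13.2-fold lower, with a wider gap to Epi (log2 difference -5.35) than to SubQ (-2.08). Its call was lost with brown against white as 1 term (adjusted p = 0.0592). The growth factor gene Igf1 was 8.81-fold lower. On the higher side stood Nampt, which makes a precursor of NAD, at 3.78-fold, and Vegfa, the vessel growth factor, at 2.20-fold. Among the genes with the lowest log2 differences overall were also Fgf13, an intracellular member of the FGF family (at least 28.4-fold lower), Heph, a copper ferroxidase that helps export iron (21.4-fold), Sult1e1, which inactivates estrogens by sulfation (at least 20.6-fold), and Lbp, the carrier of bacterial lipopolysaccharide (18.7-fold). Those with the highest log2 differences included Aspg, an asparaginase gene (26.5-fold higher), and, with white signals mostly at the floor, Cpn2, a subunit of the enzyme that trims kinins (at least 23.7-fold), and the R-spondin receptor gene Lgr6 (at least 23.3-fold).

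Hox genes, which are laid out along 4 clusters in the order of the body axis where they act, showed both directions. Of 20 tested Hox genes 9 were called higher in BAT (45%) and 6 lower (30%), against 21.5% and 31.1% of all genes tested. Among the 12 tested genes numbered 2 to 6, 9 were called higher and 1 lower, and among the 8 numbered 7 to 11 none was called higher and 5 lower. This division by number was made with the values known and carries no test. Hoxa5 had 1608 and 1416 in BAT KO and WT, against 422 and 565 in Epi KO and WT and 212 and 249 in SubQ KO and WT. Hoxc8 had 494 and 417 in BAT KO and WT, against 5344, 6092, 3597 and 4501 in the white arrays in the same order. Hoxc9 was under the floor on both BAT arrays and at least 6.55-fold lower there. Among the low numbers, Hoxb5 was the gene called lower (log2 difference -1.56, with BAT WT under the floor), and Hoxb6 (-0.67, adjusted p = 0.0548, and 0.0371 under quantile normalization) and Hoxb3 (-0.35, adjusted p = 0.193) were below 0 and not called with all 6 arrays on the deposited scale. Hoxc4, called higher, had 633 and 1105 in BAT KO and WT, against 766 and 1166 in Epi KO and WT and 328 and 439 in SubQ KO and WT, so in each genotype it was below Epi and above SubQ, and its call was lost when any array but SubQ KO was left out (adjusted p of 0.056 to 0.209). Hoxa9, called lower, had 203 and 178 in BAT KO and WT, against 100.02 and 184 in Epi KO and WT and 951 and 1095.5 in SubQ KO and WT, and its call was lost without BAT WT (adjusted p = 0.15). Regulators of the dermomyotome and muscle lineage, from which brown fat of the back develops, showed 1 of 10 called higher (10%) and 4 lower (40%). Myf5, Pax7 and En1 were under the floor on every array.

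**Figure D5:**
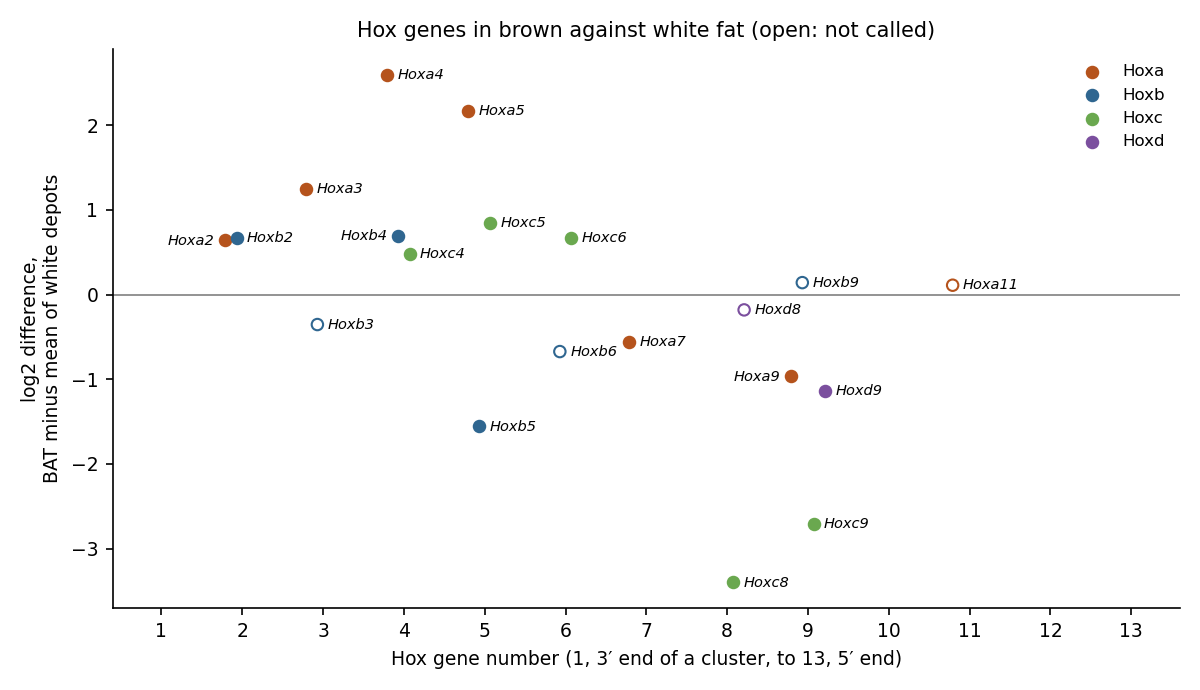
Log2 difference, BAT minus the mean of the white depots, of the 20 tested Hox genes by their number in the cluster, with a colour for each of the 4 clusters and open points for genes not called. Hoxa4 and Hoxa5 are the highest points and Hoxc8 and Hoxc9 the lowest.

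Beige adipocyte genes, which mark cells in white depots that can turn thermogenic, had 2 of 9 tested members called higher in BAT and 6 lower, with a median log2 difference of -0.13 to Epi and -2.17 to SubQ. Their share called higher, 22.2%, was near the 21.5% of all genes tested, and 66.7% were called lower against 31.1%. The 2 higher genes were the plasma membrane genes P2rx5, a purine receptor (7.66-fold), and Slc36a2, an amino acid transporter (3.82-fold). Epsti1 had 159.8 and 148 in BAT KO and WT, against 499 and 472 in Epi KO and WT and 2612 and 3434 in SubQ KO and WT. Its call was lost with brown against white as 1 term (adjusted p = 0.061). Klhl13 was 7.61-fold lower.

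Markers of the other cells of fat were mostly lower in BAT, and their part in the results above was not tested. All 14 macrophage markers were called lower, 11 stood apart and the median log2 difference was -2.51. C1qa, a complement subunit made by macrophages, had 1043 and 1305 in BAT KO and WT, against 7646, 5905, 5975 and 8634 in Epi KO, Epi WT, SubQ KO and SubQ WT. All 12 preadipocyte and fibroblast markers were lower, 8 of them apart, with a median of -1.90, and 29 of 30 collagen and matrix genes were lower, with a median of -1.56. Both lists hold Col1a1, Col3a1, Dcn and Lum, so their counts are not separate. Dpt, a fibroblast marker here, is also among the white adipocyte genes. Fn1, fibronectin, was 8.89-fold lower and Dpp4, a marker of early adipose precursors, 11.6-fold. Lymphoid markers were lower against both white depots, with the wider median gap to SubQ. In B cells and plasma cells 9 of 10 were called lower, with a median of -4.34 to SubQ and -1.07 to Epi. In T cells and natural killer cells 12 of 13 were, with -3.22 to SubQ and -1.13 to Epi. The B cell and plasma cell markers summed to signals of 1912 and 1449 in BAT KO and WT. In Epi KO and WT they summed to 17077 and 16007, and in SubQ KO and WT to 38218 and 34116. For T cells and natural killer cells the sums were 1148 and 1117, 2522 and 2661, and 18463 and 19965 in the same order. The mesothelium, the lining that covers epididymal fat, showed the other pattern, with 8 of 9 called lower and medians of -3.25 to Epi and 0.00 to SubQ, and its markers summed to signals of 788 and 766 in BAT KO and WT against 13892 and 16395 in Epi KO and WT and 814 and 812 in SubQ KO and WT. Endothelial markers were closer to even, as 5 of 12 were called lower and none higher, with a median of -0.34, and Kdr, the main VEGF receptor, was not called (log2 difference 0.28, adjusted p = 0.107, and 0.0419 under quantile normalization). Pericyte and smooth muscle markers had 2 of 10 called higher and 5 lower, mast cells 5 of 6 lower, nerve and Schwann cells 2 of 4 lower, and epithelium 1 of 5 higher and 2 lower. Among all genes tested 21.5% were called higher and 31.1% lower. Shares were 20% and 50% for pericytes and smooth muscle, 20% and 40% for epithelium, and 0% and 41.7% for endothelium. None of 7 tested seminal vesicle genes was called.

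Markers of skeletal muscle, which lies next to brown and subcutaneous fat, differed between the arrays. They summed to signals of 10260 in BAT KO and 37470 in BAT WT, against 7793 and 11989 in Epi KO and WT and 107100 and 90920 in SubQ KO and WT. Of 25 tested markers 1 was called higher in BAT and 5 lower, none stood apart, and the median log2 difference was 0.72 to Epi and -2.78 to SubQ. Both shares, 4% and 20%, were below those of all genes tested, 21.5% and 31.1%. The muscle actin gene Acta1 had 159.6 in BAT KO and 4420.3 in BAT WT, against 1092 and 1986 in Epi KO and WT and 14589 and 12807 in SubQ KO and WT, so the BAT arrays lay on both sides of Epi. Muscle also expresses Cox7a1 and Fabp3. Fabp3 had 28740.0 in BAT KO and 31911 in BAT WT, against 1062 and 2028 in Epi KO and WT and 782 and 693 in SubQ KO and WT, and like Cox7a1 it was at its lowest in SubQ. The part of muscle in the signals of both genes was not tested.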

How the data were processed

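The deposited values are Affymetrix probe set intensities on a linear scale, 1 per probe set and array, from biotin-labelled total RNA extracted with Trizol. They were made with MAS5 and Affymetrix Expression Console, per the submitters' processing notes, with versions not given in the sources used here. On each array the deposited intensity values averaged 500.0 after 2% were trimmed from either end, so total RNA per cell cannot be compared, and the table holds no detection or saturation flags. The table holds 45037 probe sets besides controls, and the platform annotation names 1 gene for 34945 of them, several for 932 and none for 9160. Symbols were looked up by gene ID in a RefSeq table (GRCm38.p6), which held 34741 of these probe sets and changed 0 symbols. Gene names from the array annotation gave 18193 genes, and a gene with several probe sets took the one of highest mean log2 signal.

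Signals under 63 were raised to 63 and put on the log2 scale. The model in limma 3.58.1 (R 4.3.3) had terms for depot and genotype over all 6 arrays, and 13239 genes passed the filter of a signal over the floor on 3 arrays or more. Where an array of the dimmer side was at the floor, a fold is written as "at least". The number of arrays limits the precision. The fit was tested on simulated data. The members, gene lists, motifs and the rule for naming genes were chosen with earlier results of these data known. That rule takes the 5 markers, the 12 highest and 12 lowest genes with agreeing probe sets and a bright side of at least 4 times the floor, up to 4 called members at each end of a list and all members of families of related genes. A few members were named besides for their known role. Promoter windows come from RefSeq, and 10643 of the genes tested had one. Alternatives were quantile normalization, median centring, other floors and filters, other choices of probe sets, other limma designs, each array left out, and each white depot or genotype alone. Values were prepared and plotted with pandas 2.3.3, numpy 2.4.6 and matplotlib 3.10.9 in Python 3.11.15.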

Additional observations from a re-analysis of the deposited data

Results flagged for a closer look

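Among the 4 white arrays, 1 array stood far from the other 3 for several genes, by a gap large against the range of the group. For 4 arrays of the same kind chance does this for about 1 gene in 20. These arrays differ in depot and genotype, so that rate does not apply to them. The gap was the whole range, a share of 1, where the other 3 arrays were at the floor: Epi KO for Kng1 (78.4), and Epi WT for Cpn2 (91.4) and Lgr6 (78.3). Epi KO was the low array for Ppargc1a (gap 0.836 of the range) and Cox8b (0.87). Epi WT was the high array for Fabp4 (0.831), Slc2a4 (0.93) and Alpl (0.931). SubQ KO was the low array for Slc7a10 (0.878) and SubQ WT the high array for Dpp4 (0.846). All of these genes but Fabp4 kept their call under each array left out. In 2 genes the BAT array lay above both white arrays among KO and below both among WT, and this was not tested: Eva1a, at a log2 difference of 0.71 in KO and -0.727 in WT, and Fabp5, at 0.301 in KO and -0.163 in WT. Neither was called with all 6 arrays, while Eva1a was called higher without BAT WT (adjusted p = 0.0404) and lower without BAT KO (adjusted p = 0.0363). The mean difference also had opposite signs for Cox6a2 (-1.61 in KO and 0.67 in WT), as did the median of the skeletal muscle list (-2.45 in KO and 0.22 in WT), without every white array lying on 1 side for Cox6a2.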

How the results depend on the processing

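Counts over all genes tested stayed within 1.5 times the values reported under every alternative but those named here. Without the BAT WT array 1812 genes were called higher. With arrays left out one at a time, 1812 to 2730 genes were called higher and 3048 to 3791 lower, 708 to 863 and 1201 to 1449 stood apart by the rule of size, and 37.3% to 42.3% of calls were higher. Fewer arrays make the rule of size easier to meet: it took 1195 genes as higher and 1670 as lower with the WT arrays only, 1736 as lower with the KO arrays only and 1769 as lower against SubQ only. Quantile normalization raised the median log2 difference of all genes tested to -0.01, and median centring to -0.04. Quantile normalization gave 3385 higher and 3648 lower calls, and turned Cd36 to -0.58, Fabp5 to -0.51, Adipoq to -0.39, Atp5g3 to -0.22 and the median of the genes of all adipocytes to -0.0892. Eva1a ranged between -0.73 without BAT KO and 0.71 without BAT WT, against Epi only Tbx15 turned to 0.30, Hoxc4 to -0.18 and Hoxa9 to 0.49, and the mesothelium median turned to 0.00371 against SubQ only. With brown against white as 1 term, the difference between Epi and SubQ enters the spread, and 2264 genes were called higher and 3004 lower. Among the calls then lost were Agt (adjusted p = 0.0592), Epsti1 (0.061), Atp5g3 (0.0652), Ptger3 (0.0727), Fgf1 (0.331), Tbx15 (0.436), Hoxc4 (0.48) and Hoxa9 (0.513). The causes were not tested. Of the 129 tested genes named with values, 102 kept direction and side of the threshold under every alternative run. Over these alternatives 636 values of list medians moved by less than the SD between the KO and the WT arrays, and 219 moved by more. A further 2, given above, moved by more and turned sign. Sign turns within that SD, or of medians near 0, are not among these 2. The skeletal muscle median, for example, was -1.16 and turned to 0.72 against Epi, and the creatine and calcium median went from -0.62 to 0.27. No paired analysis was possible because the labels carry no replicate numbers; genotype, with 1 array per depot, was the block used.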

Other observations

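Of 10092 probe sets with no symbol or with several, 4394 were above the floor on at least 3 arrays. By the rule of size 126 of these (2.87%) stood apart as higher in BAT and 139 (3.16%) as lower.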
